A study of Mus musculus with 8 samples.

Results

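The genes described here are the nuclear genes of oxidative phosphorylation. They were taken by symbol from the input RNA table: names that begin with Nduf, Cox4 to Cox8, Uqcr or Atp5, and the 6 names Sdha, Sdhb, Sdhc, Sdhd, Cyc1 and Cycs. The rule found 92 of 16279 genes, and 89 of them were among the 12807 genes with an adjusted p. By their known products, 36 are subunits of complex I, 4 of complex II, 9 of complex III, 17 of complex IV and 15 of complex V. The other 11 are cytochrome c (Cycs), 7 assembly factors of complex I (Ndufaf1 to Ndufaf7), the supercomplex factor Cox7a2l, and Atp5s and Atp5sl, which are not subunits. Ndufa4 and Ndufa4l2 are named after complex I but belong to complex IV and were counted there.

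The respiratory chain passes electrons from NADH through complex I and from succinate through complex II to coenzyme Q, then through complex III and cytochrome c to complex IV, which reduces oxygen. Complexes I, III and IV pump protons across the inner mitochondrial membrane, and complex V, the ATP synthase, uses the return of the protons to make ATP. Subunits of complexes I, III, IV and V are encoded in both the nuclear and the mitochondrial genome, and all subunits of complex II are nuclear. In neurons and neuron-like cells the system supplies much of the ATP spent on ion pumping.

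N2a cells, a mouse neuroblastoma line, were transfected with a small interfering RNA against Emg1, the gene of an 18S ribosomal RNA methyltransferase, or with a control small interfering RNA, and harvested 48 h later. Polyadenylated RNA was sequenced as input and after immunoprecipitation (IP) with an antibody against N6-methyladenosine (m6A), a methyl mark on mRNA, so that 8 libraries made 4 groups of 2: Emg1 knockdown IP, control IP, Emg1 knockdown input and control input. Whether replicate libraries were separate cultures is not labelled, so p-values measure only the spread between these libraries, which may be technical. The tables analysed here hold no value per library, so each gene is given by its mean normalized count, its log2 fold change with the standard error (SE), and the p of the authors' DESeq2 Wald test after Benjamini-Hochberg adjustment.

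Emg1 itself was at -1.73 ± 0.11 (log2, SE) per the authors' deposited table, 30.2% of control, with an adjusted p of 3.37e-54. No direction is named in the file, and this value is why positive fold changes are taken as higher in knockdown cells. Of 10 sympathoadrenal markers that fit a neuroblastoma line, 9 were measured and 8 had a mean of at least 100, against 1 of 6 fibroblast, 1 of 5 leukocyte and 2 of 6 muscle and heart markers. Of the sympathoadrenal markers, 6 were higher and 1 was lower in knockdown cells at an adjusted p under 0.05. These counts stand beside 17.1% higher and 15.5% lower among all genes tested. The leukocyte marker Cd74 (mean 930) was lower at -0.74 ± 0.12 (adjusted p 1.29e-08) per the authors' deposited table. The leukocyte markers Cd68 and Csf1r, at 0.00 and 2.04, had means of only 15.4 and 3.96 and no adjusted p. The part of the marker changes in the results on the respiratory chain was not tested. In bulk RNA, fewer cells of a kind and less RNA per cell cannot be told apart.

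At an adjusted p under 0.05, 10 of the 89 genes were higher and 27 were lower in Emg1 knockdown cells, and 52 did not pass. These are 11.2% and 30.3% of the genes, against 17.1% higher and 15.5% lower among all 12807 genes tested. Most of the genes are abundant, and abundant genes passed the test more often. Of the 78 oxidative phosphorylation genes with a mean of at least 1000, 10 were higher and 23 were lower (12.8% and 29.5%), while of all 6536 genes at that level 26.1% were higher and 19.3% were lower. The median log2 fold change was -0.05 for the 89 genes and -0.00 for all genes tested, and it was -0.04 and 0.03 at means of at least 1000. The calls of Ndufb9, Ndufv1, Ndufaf4 and Cycs did not hold when p was adjusted over every gene with a p, at 0.0571, 0.0610, 0.0516 and 0.0556. Cox5b and Ndufa4l2 were the ends of the range, at 1.01 and -1.14 (log2) per the authors' deposited table.

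**Figure D1:**
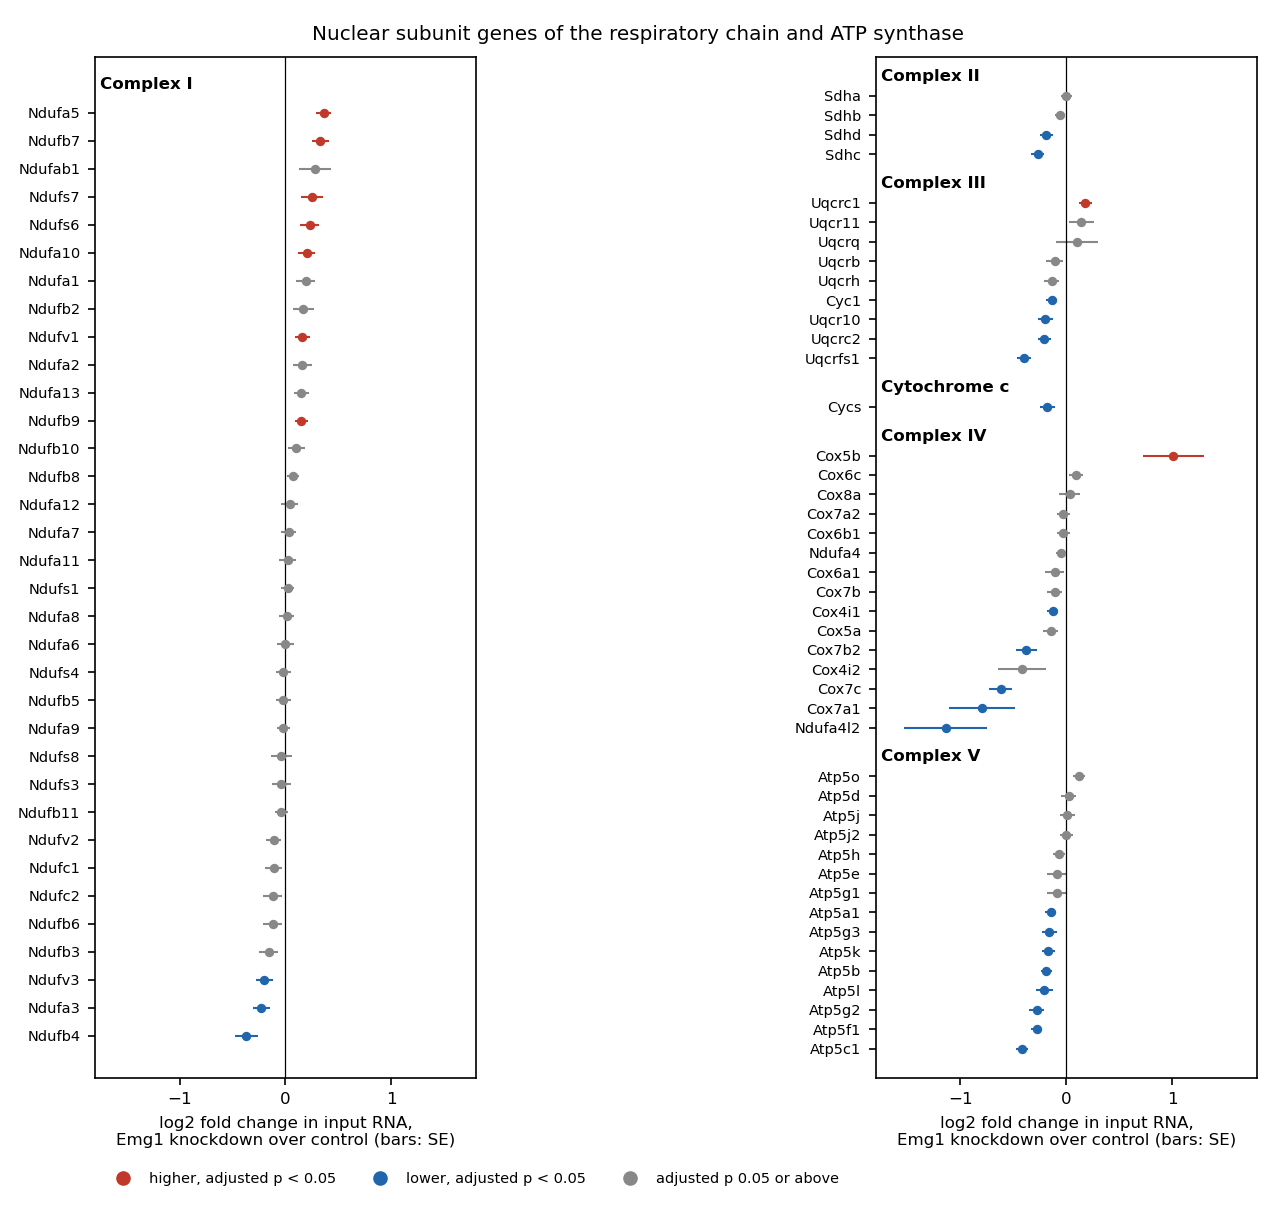
Log2 fold change of nuclear subunit genes with an adjusted p in input RNA (all but 1 in complex I), Emg1 knockdown over control, grouped by complex and ordered by value, with bars for the SE. Red and blue points mark adjusted p under 0.05; complex V has 8 blue points and 0 red ones, and Cox5b at 1.01 stands alone at the right of complex IV.

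The complexes did not share one pattern. Complexes II, III and V held 28 genes, of which 14 were lower and 1 was higher, with a median of -0.14. This pool left out complexes I and IV and was put together with the results of each complex known. Counts by complex are to be read against 15.5% lower and 17.1% higher among all genes tested. At means of at least 1000 these shares were 19.3% and 26.1%. No complex was tested against them. In complex I, 7 of 35 genes were higher, 4 were lower and the median was 0.02, so the shares of 20.0% and 11.4% were both under those of all genes at means of at least 1000. Counts in complex I depended on the threshold: at an adjusted p under 0.01, 2 were higher and 2 were lower, and 5 were higher when p was adjusted over every gene or the fold changes were centred. In complex V, 8 of 15 genes were lower (53.3%) and 0 were higher; at an unadjusted p under 0.05, 1 was higher, Atp5o (p 0.0401). At an adjusted p under 0.01, 5 complex V genes were lower. In complex III, 4 of 9 were lower and 1 was higher, in complex IV 5 of 15 were lower and 1 was higher, and in complex II 2 of 4 were lower and 0 were higher, also at an unadjusted p under 0.05. The difference between complexes was not tested.

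**Figure D2:**
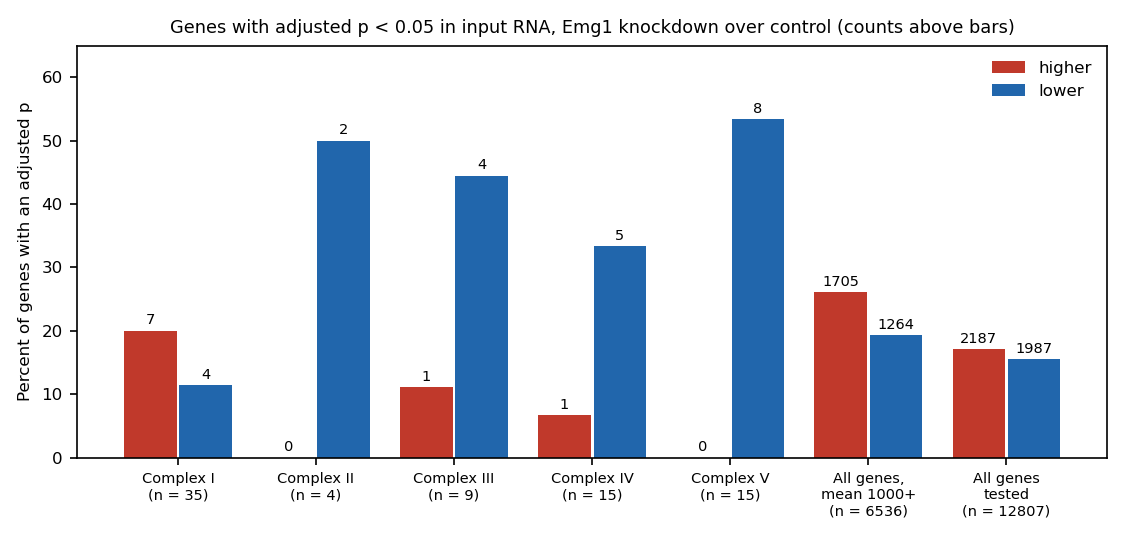
Percent of the genes of each complex that were higher (red) or lower (blue) in Emg1 knockdown cells at an adjusted p under 0.05, with the number of genes above each bar and all genes at the right. The blue bar is taller than the red one in complexes II to V, and complex I has 7 higher against 4 lower genes, which become 2 and 2 at an adjusted p under 0.01.

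Complex I takes electrons from NADH through a peripheral arm that holds the flavin and the iron-sulfur clusters, and its membrane arm pumps protons. Of the 7 core nuclear subunits, which carry the catalysis, 2 were higher and 1 was lower, and of 28 accessory subunits 5 were higher and 3 were lower. The accessory shares were 17.9% and 10.7%, against 17.1% higher and 15.5% lower among all genes tested. Ndufs7, a core subunit that holds an iron-sulfur cluster, was higher at 0.25 ± 0.10 (log2, SE; adjusted p 0.0363), and so was Ndufv1, which binds NADH and the flavin, at 0.16 ± 0.07 (adjusted p 0.0483) per the authors' deposited table. The 4 core genes that did not pass lay between -0.11 and 0.02, and core subunits of one arm were thus called in both directions.

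Among the accessory subunits of complex I, Ndufa5 of the peripheral arm (RefSeq, GRCm38.p6, chr6:24518662-24527690) had the largest call upward, at 0.36 ± 0.07 or 128% of control (adjusted p 1.23e-05) per the authors' deposited table. Ndufb7, a membrane arm subunit facing the intermembrane space, followed at 0.33 ± 0.08 (adjusted p 3.70e-04) per the authors' deposited table. The remaining higher genes were Ndufs6, a zinc-binding subunit, at 0.23 ± 0.09, and of the membrane arm Ndufa10 at 0.20 ± 0.08 and Ndufb9 at 0.15 ± 0.06, with adjusted p of 0.0265, 0.0345 and 0.0452 per the authors' deposited table. In the other direction, Ndufb4 of the membrane arm was at -0.37 ± 0.11 or 77.5% of control (adjusted p 0.00281) per the authors' deposited table. Ndufa3, also of the membrane arm, was at -0.23 ± 0.08 and Ndufv3, next to the NADH site, at -0.20 ± 0.08 (adjusted p 0.0232 and 0.0280) per the authors' deposited table. The 20 accessory genes that did not pass included Ndufa12, Ndufb8 and Ndufc2, at 0.04, 0.07 and -0.12. Ndufs5, with a mean of only 7.02, was given no adjusted p.

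The assembly factors of complex I help to build it and are not in the finished enzyme. Of the 7, 2 were lower (28.6%) and 1 was higher (14.3%), against 15.5% and 17.1% of all genes tested. So few genes were not tested against these shares. Ndufaf7 (RefSeq chr17:78937106-78948052), a protein arginine methyltransferase of mitochondria, was at -0.96 ± 0.19 or 51.5% of control, with an adjusted p of 4.86e-06 per the authors' deposited table. Ndufaf5, which hydroxylates an arginine of Ndufs7, was at -0.39 ± 0.13 (adjusted p 0.0121), and Ndufaf4 was higher at 0.24 ± 0.10 (adjusted p 0.0407) per the authors' deposited table. Both of these lower genes encode enzymes that modify arginines. The mean of Ndufaf7 was 378, and its SE compares with a median of 0.16 among 2865 genes within 2-fold of that mean. Of 8 measured assembly factors with other names, 1 was lower and 0 were higher (2 and 1 at an unadjusted p under 0.05): Tmem126a was at -0.37 ± 0.10 (adjusted p 9.35e-04), beside Nubpl at -0.52 ± 0.22 and Timmdc1 at 0.20 ± 0.09 (adjusted p 0.0525 and 0.0756), per the authors' deposited table.

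Complex II is succinate dehydrogenase, an enzyme of both the respiratory chain and the tricarboxylic acid cycle. Its membrane anchors were lower and its catalytic subunits did not pass. The anchors Sdhc and Sdhd were at -0.27 ± 0.06 and -0.19 ± 0.06 (adjusted p 6.07e-05 and 0.0114) per the authors' deposited table. The flavin subunit Sdha was at 0.00 ± 0.05 and the iron-sulfur subunit Sdhb at -0.06 ± 0.05 (adjusted p 0.964 and 0.413) per the authors' deposited table. The intervals of Sdhc (-0.39 to -0.15) and Sdha (-0.10 to 0.11) do not overlap. The interval of Sdhd (-0.31 to -0.06) overlaps those of Sdha and Sdhb (-0.16 to 0.04), and that of Sdhc just overlaps that of Sdhb. The difference between anchors and catalytic subunits was not tested.

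In complex III, both nuclear subunits that carry electrons were lower. Uqcrfs1, the Rieske iron-sulfur protein (RefSeq chr13:30540312-30545316), was at -0.40 ± 0.07 or 76.0% of control (adjusted p 5.43e-08), and Cyc1, cytochrome c1, at -0.14 ± 0.05 (adjusted p 0.0328) per the authors' deposited table. The paired core proteins, which hold no redox group, went apart: Uqcrc2 was at -0.21 ± 0.06 and Uqcrc1 at 0.18 ± 0.06 (adjusted p 0.00367 and 0.00845) per the authors' deposited table. Their difference was -0.40, with a 95% interval of -0.56 to -0.23 from the SEs taken as independent; this pair was chosen after its values were seen. Of 5 accessory subunits only Uqcr10 passed, at -0.20 ± 0.07 (adjusted p 0.0192) per the authors' deposited table. Uqcrb, Uqcrh and Uqcr11 did not pass, at -0.11, -0.14 and 0.14. Cycs, the mobile carrier between complexes III and IV and a trigger of apoptosis when released, was at -0.18 ± 0.07 (adjusted p 0.0439) per the authors' deposited table.

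Complex IV, cytochrome c oxidase, held the widest range of fold changes, but both ends were imprecise. These were Ndufa4l2 at -1.14 ± 0.39 (mean 74.2) and Cox5b at 1.01 ± 0.29. Its 11 broadly expressed subunits had a median of -0.05, with 1 higher (9.09%) and 2 lower (18.2%). All genes tested gave 17.1% and 15.5%. Cox7c (RefSeq chr13:86044798-86046795), a small membrane subunit, was at -0.62 ± 0.11 or 64.9% of control (adjusted p 5.27e-07), and Cox4i1, a regulatory subunit, at -0.13 ± 0.05 (adjusted p 0.0275) per the authors' deposited table. Cox5b, a zinc-binding subunit (RefSeq chr1:36691487-36693388), was at 1.01 ± 0.29 or 201% of control (adjusted p 0.00263), with an interval of 0.44 to 1.57, per the authors' deposited table. Cox5a, Cox6a1, Cox6b1, Cox6c, Cox7a2, Cox7b, Cox8a and Ndufa4 did not pass and lay between -0.15 and 0.09.

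The SE of Cox5b was out of line with its level. It was 0.29, while the median SE of the 4652 genes within 2-fold of its mean of 2265 was 0.09, and 14 of them (0.301%) had a larger one. Uqcrq, a small subunit of complex III, also had a large SE for its level, at 0.10 ± 0.20 (adjusted p 0.755) per the authors' deposited table, where the median SE of 2050 genes of like mean was 0.07 and 21 of them (1.02%) had a larger one. Cox6a1 (SE 0.09, median 0.07) and Cox8a (SE 0.10, median 0.08) came next, with a larger SE in 3.47% and 3.95% of genes of like mean. Such an SE goes with unequal values among the libraries of a group, and which library differed cannot be read from the table. RefSeq lists a pseudogene named after Cox5b, and pseudogenes named after 9 more of the 92 genes, Ndufa12, Ndufab1, Ndufs5, Uqcrh, Cox7c, Atp5c1, Atp5k, Atp5l and Cycs. The counting of reads shared with such copies is not given in the sources used, so the values of these 10 genes are less certain. Pseudogenes with unrelated names were not searched for, so the values of the other genes may be affected too.

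**Figure D3:**
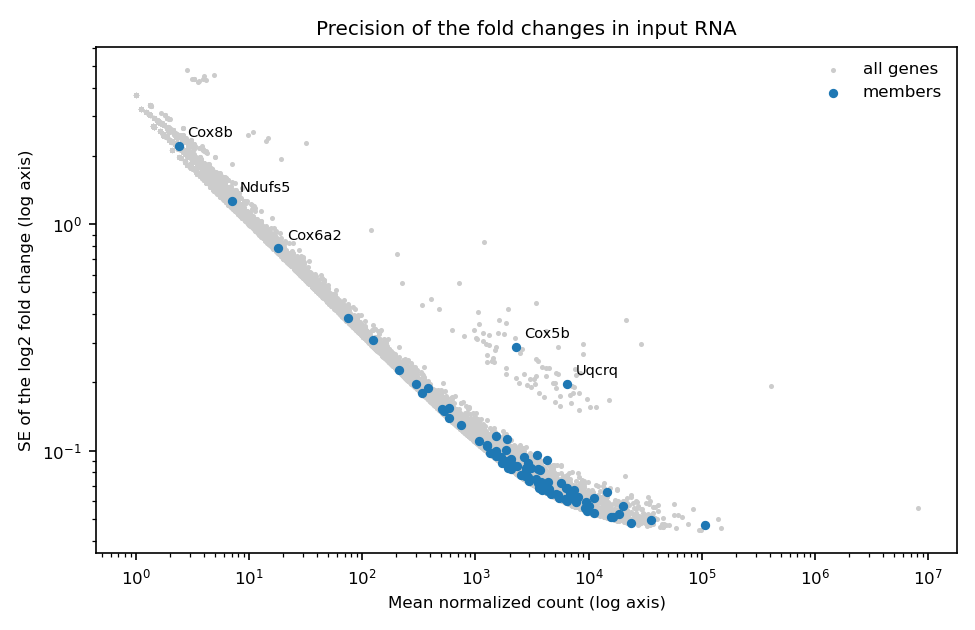
SE of the log2 fold change against the mean normalized count for all genes (grey) and the 92 oxidative phosphorylation genes (blue), both axes logarithmic. Most blue points follow the grey band; Cox5b (0.29) and Uqcrq (0.20) lie above it, and Cox8b, Ndufs5 and Cox6a2 are at means of 2.40, 7.02 and 18.1.

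Several complex IV subunits have a second gene used mainly in certain tissues or states. Of the 6 such genes here, 4 had an adjusted p, 3 of these were lower and 0 were higher (also at an unadjusted p under 0.05), with a median of -0.61. The shares among all genes tested were 15.5% lower and 17.1% higher, and these 4 genes were not tested against them. Ndufa4l2, known as induced by low oxygen, was at -1.14 ± 0.39 or 45.3% of control at a mean of 74.2 (adjusted p 0.0127) per the authors' deposited table. Cox7a1, the heart and muscle form, was at -0.80 ± 0.31 at a mean of 124, and Cox7b2, known from testis, at -0.38 ± 0.10 at a mean of 1256 (adjusted p 0.0320 and 0.00195) per the authors' deposited table. Cox4i2, best known from lung, was at -0.42 ± 0.23 and did not pass (adjusted p 0.144) per the authors' deposited table. The muscle forms Cox6a2 and Cox8b were nearly unmeasured at means of 18.1 and 2.40.

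These tissue forms were also set against the broadly expressed gene of the same position, by the difference of the fold changes with a 95% interval from both SEs. The difference was -1.09 (-1.85 to -0.32) for Ndufa4l2 less Ndufa4 and -0.77 (-1.39 to -0.16) for Cox7a1 less Cox7a2. Cox7b2 less Cox7b gave -0.27 (-0.51 to -0.02), a pair added after seeing the data. The interval included 0 for Cox4i2 less Cox4i1 at -0.30 (-0.75 to 0.16), for Cox6a2 less Cox6a1 at -0.97 (-2.51 to 0.58) and for Cox8b less Cox8a at 2.15 (-2.22 to 6.52). For 3 of these 6 pairs the interval lay under 0, with the restricted form the lower one. In 2 of these 3 pairs the restricted form had a low mean, 74.2 for Ndufa4l2 and 124 for Cox7a1.

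Cox7a2l, which resembles a complex IV subunit and links complexes III and IV into supercomplexes, had the smallest adjusted p of the 92 genes. It was at -0.76 ± 0.06 or 58.9% of control (adjusted p 2.82e-33) at a mean of 6167 per the authors' deposited table. RefSeq places it at chr17:83501917-83514333. Its related subunit genes Cox7a2 and Cox7a1 were at -0.03 ± 0.06 and -0.80 ± 0.31 per the authors' deposited table.

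Complex V, like complex II, held no higher gene. Its F1 head makes ATP around a turning shaft, the c ring in the membrane is turned by protons, and a peripheral stalk holds the head still. In the head, 3 of 5 genes were lower. The shaft gene Atp5c1 (RefSeq chr2:10056030-10080510) was at -0.42 ± 0.06 or 74.8% of control (adjusted p 6.10e-12), and the catalytic and regulatory head genes Atp5b and Atp5a1 were at -0.19 ± 0.05 and -0.15 ± 0.05 (adjusted p 2.67e-04 and 0.00795) per the authors' deposited table. Atp5d and Atp5e, the smaller shaft subunits, did not pass, at 0.02 ± 0.07 and -0.09 ± 0.09 (adjusted p 0.893 and 0.488) per the authors' deposited table. Of the 3 shaft genes, 1 thus passed the test.

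The c ring protein is made from 3 genes whose mature products are the same. Atp5g2 was at -0.28 ± 0.07, Atp5g3 at -0.16 ± 0.07 and Atp5g1 at -0.09 ± 0.09 (adjusted p 3.31e-04, 0.0390 and 0.506) per the authors' deposited table. The intervals of their differences all included 0: Atp5g2 less Atp5g1 was -0.19 (-0.41 to 0.03), Atp5g3 less Atp5g1 was -0.08 (-0.30 to 0.14) and Atp5g2 less Atp5g3 was -0.11 (-0.30 to 0.07). Of 4 stalk genes only Atp5f1 passed, at -0.28 ± 0.05 (adjusted p 4.14e-07), while Atp5h, Atp5j and Atp5o were at -0.07, 0.01 and 0.12 per the authors' deposited table. Of the membrane subunits that join synthases into rows, Atp5l was at -0.21 ± 0.08 and Atp5k at -0.17 ± 0.06 (adjusted p 0.0363 and 0.0315), and Atp5j2 was at 0.00 ± 0.06, per the authors' deposited table.

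The name rule missed a few further parts of the synthase that the table lists under other symbols, and these were chosen with earlier results known. Usmg5, RefSeq Atp5md, was at -0.33 ± 0.10 (adjusted p 0.00342) and 2010107E04Rik, RefSeq Atp5mpl, at -0.54 ± 0.10 (adjusted p 1.04e-06) per the authors' deposited table. Both are small membrane subunits and both were lower. Atpif1, the inhibitor of the synthase, did not pass, at 0.13 ± 0.07 (adjusted p 0.153) per the authors' deposited table. Atp5s and Atp5sl did not pass, at -0.22 and 0.11.

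Promoter sequences were read from RefSeq (GRCm38.p6) for 76 of the 92 genes. In the 250 bases before the start, on either strand, 4 short motifs were counted. GCGCATGCG, bound by NRF1, a known activator of respiratory chain genes, was present in 8 of the 76 genes (10.5%), against 444 of 27025 genes (1.64%). Those 27025 are all genes with a promoter sequence, more than the 16279 genes of the input RNA, and no background of expressed genes was counted. The motif was present in 4 of 20 lower genes, 1 of 9 higher genes, 3 of 14 complex V genes and 2 of 32 complex I genes. The called genes that hold it are given here with up to 40 flanking bases; capitals mark the motif, or 2 overlapping copies on opposite strands.
Atp5g2: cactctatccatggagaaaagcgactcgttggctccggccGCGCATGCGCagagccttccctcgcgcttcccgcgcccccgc
Atp5k: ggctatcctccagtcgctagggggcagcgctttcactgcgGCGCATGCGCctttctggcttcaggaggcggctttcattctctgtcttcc
Atp5l: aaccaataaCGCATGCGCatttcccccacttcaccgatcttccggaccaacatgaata
Cycs: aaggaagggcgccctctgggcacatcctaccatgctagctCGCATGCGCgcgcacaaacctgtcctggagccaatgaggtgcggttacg
Ndufaf4: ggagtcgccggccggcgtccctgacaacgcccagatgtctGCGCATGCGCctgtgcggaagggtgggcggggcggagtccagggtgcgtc

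In order, these stretches lie at chr15:102671048-102671129 (minus strand), chr5:108434400-108434489 (minus), chr9:44920935-44920992 (minus), chr6:50566582-50566670 (minus) and chr4:24897930-24898019 (plus). Atp5g2, Atp5k, Atp5l and Cycs were lower in knockdown cells, and Ndufaf4 was higher. The motif thus stood before genes called in both directions. Of the other motifs, CACGTG, the E-box, was in 7 of 76 genes (9.21%, against 6.86% of all), CCGGAAGT, the ETS site, in 3 (3.95%, against 3.23%) and AAGATGGCG, the YY1 site, in 2 (2.63%, against 0.710%). A match describes letters in a window and shows no binding.

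The m6A data are a list of 2114 peaks that the authors found to differ between the conditions. Of the 92 genes, 12 (13.0%) carried 13 of these peaks, against 11.7% of all 16279 genes. At means of at least 1000 it was 12 of 78 genes (15.4%), against 22.8% of 6536 genes. Complex I had a peak on 7 of 36 genes, complex V on 2 of 15, complexes III and IV on 1 each and complex II on 0 of 4. Over the 92 genes the share was thus close to that of all genes, and at means of at least 1000 it was under it. In complex I the share was 19.4%, above the 11.7% of all genes and under the 22.8% at means of at least 1000.

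The sign of the peaks stood further apart. The change of a peak is a log2 ratio between the conditions whose numerator is not named, so it is given with the sign as deposited. Of the 13 peaks, 12 had a negative change (92.3%, 95% exact binomial interval 64.0 to 99.8), against 53.1% of all 2114 peaks (51.0 to 55.3). All 8 peaks on complex I subunits were negative. The fold enrichment of IP over input of the 13 peaks ran from 1.41 to 11.1, with a median of 2.38. Among the 456 peaks of the whole list at or under 2.38, 70.2% were negative, a share within the interval of the 13 peaks. Part of the 13 peaks lay above 2.38. Of all peaks on genes with a mean of at least 1000, 57.0% were negative. The part of enrichment in the signs was not tested. The median enrichment of all peaks was 5.53. Peaks on one gene or in one pathway are not independent, and the intervals cover counting error only.

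In complex V, Atp5g3 had the most negative change, -1.87 at chr2:73911000-73911326 (mm10), with an enrichment of 2.83, per the authors' deposited table. Atp5k had -0.375 with an enrichment of 2.15 per the authors' deposited table, in 4 blocks that spanned 97.6% of the gene. In complex I, Ndufa12 had -1.65 with an enrichment of 7.66 per the authors' deposited table, and its 4 blocks at chr10:94199009-94220801 spanned 97.3% of the gene. Ndufb8 had -1.59 at chr19:44554981-44555415 with an enrichment of 1.96 per the authors' deposited table. Ndufb7 carried 2 peaks, at its first and last bases: chr8:83566758-83566847 with -1.33 and chr8:83571446-83571623 with -0.98, at enrichments of 1.61 and 1.41 per the authors' deposited table. Of these 6 peaks, only that of Ndufa12 was more enriched in the IP than the median of all peaks.

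The other peaks of complex I were those of Ndufb9 at -0.946, Ndufc2 at -0.757, Ndufs6 at -0.523 and Ndufv3 at -0.395, with enrichments of 2.13, 1.46, 2.38 and 11.1 per the authors' deposited table. The peak of Ndufv3 was the most enriched of the 13 and was a single block of 656 bases within the gene. Ndufaf2, an assembly factor related in sequence to Ndufa12, had -0.696 at an enrichment of 4.45, and Uqcrb of complex III -0.457 at 3.21, per the authors' deposited table. The only positive change was that of Cox7b2, 0.371 at an enrichment of 3.25 per the authors' deposited table, on a block of 400 bases at the very end of the gene.

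**Figure D4:**
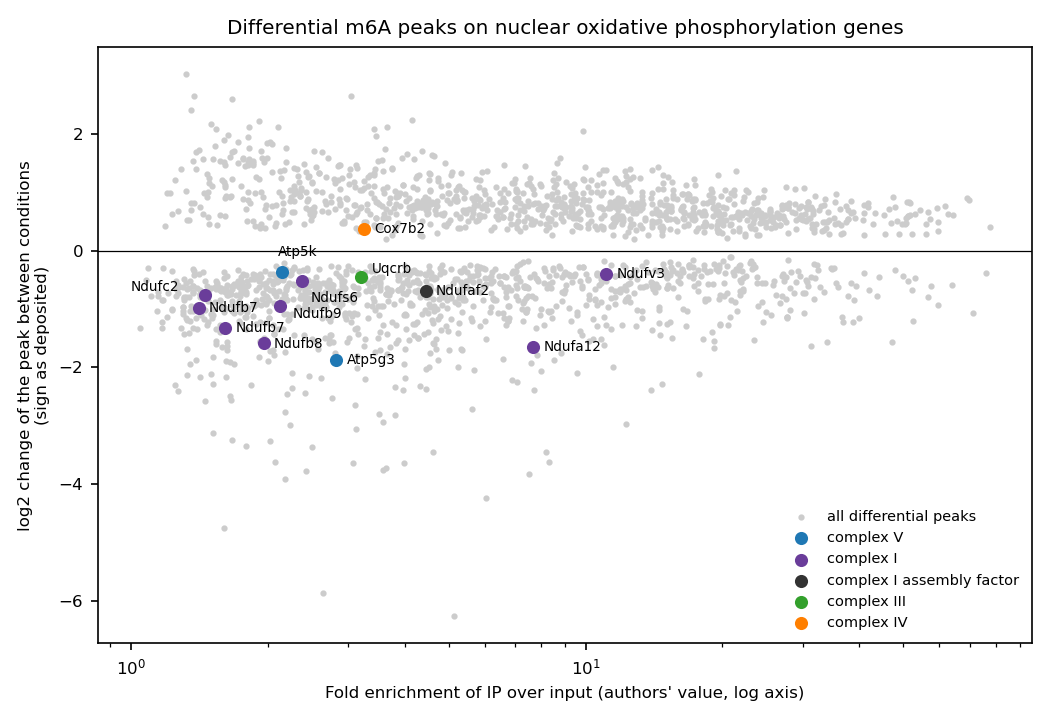
Log2 change between conditions, with the sign as deposited, against the fold enrichment of IP over input (log axis) for all 2114 differential m6A peaks (grey) and the 13 on oxidative phosphorylation genes (coloured by complex). All coloured points but Cox7b2 (0.371) lie under 0, and only Ndufv3 and Ndufa12 lie above an enrichment of 5.53, the median of all peaks.

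Most of the peaks also reached a start of their gene, a measure chosen after their positions were seen. Of the 13 peaks, 10 reached within 100 bases of a RefSeq start of the gene (76.9%, exact binomial interval 46.2 to 95.0), against 411 of the 2111 peaks whose gene was matched (19.5%). Among negative peaks it was 10 of 12 on oxidative phosphorylation genes and 33.1% of 1121 in all, and among all positive peaks 4.04% of 990. Of the 10 peaks, 5 spanned at least 94.9% of their gene, those of Ndufa12, Ndufaf2, Ndufs6, Uqcrb and Atp5k, and such a peak reaches the start by its length. The part of gene length in this was not tested. The peaks that did not reach a start were those of Ndufv3 and Cox7b2 and the end peak of Ndufb7. The peak of Atp5g3 reached a RefSeq start within the gene and lay 1138 bases from the outer start of its span.

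Genes with peaks were of every kind in input RNA. Of the 12 genes with a peak, Ndufb7, Ndufb9 and Ndufs6 were higher in input, Atp5g3, Ndufv3, Atp5k and Cox7b2 were lower, and Ndufa12, Ndufb8, Ndufc2, Ndufaf2 and Uqcrb did not pass. All 3 higher genes had negative peaks, and of the 4 lower genes 3 had negative peaks and 1 a positive one. Both measures may rest on the same input libraries, so they are not independent.

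Around the respiratory chain, other lists of mitochondrial genes gave mixed counts, to be read against the 17.1% higher and 15.5% lower of all genes tested (26.1% and 19.3% at means of at least 1000). Several lists, such as both lists of assembly factors that follow, were near or under these shares, and no list was tested against them. Of 13 measured assembly factors of complexes II, III and V, 2 were lower and 2 higher. These were led by Sdhaf2, which attaches the flavin to Sdha, at -0.48 ± 0.13 (adjusted p 0.00109), and Atpaf2, a factor of the F1 head, at -0.36 ± 0.12 (adjusted p 0.00979), per the authors' deposited table. Lyrm7, which helps in the insertion of Uqcrfs1, was at 0.73 ± 0.28 (adjusted p 0.0307) per the authors' deposited table. Of 18 measured complex IV assembly factors, 2 were lower and 2 higher, with Coa5 at -0.46 ± 0.07, Lrpprc, a keeper of mitochondrial mRNA, at 0.36 ± 0.06 and Cox18 at 0.71 ± 0.21 (adjusted p 3.03e-10, 2.99e-07 and 0.00312) per the authors' deposited table. Among known regulators of respiratory chain genes, 4 of 13 tested were higher and 0 were lower. The share of 30.8% higher stood beside 17.1% of all genes and 26.1% at means of at least 1000. The 9 that did not pass included Nrf1, Gabpa, Gabpb1, Esrra and Yy1, at 0.15, -0.00, 0.02, -0.17 and -0.16. Pprc1, a coactivator, was at 0.67 ± 0.07, Polrmt, the mitochondrial RNA polymerase, at 0.52 ± 0.11, and Polg, the mitochondrial DNA polymerase, at 0.36 ± 0.09 (adjusted p 1.23e-19, 2.36e-05 and 2.43e-04) per the authors' deposited table. The difference between the regulators and the subunit genes was not tested.

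Genes that feed the chain were also examined. In the tricarboxylic acid cycle 4 of 13 were higher and 2 lower, with Suclg1, of succinyl-CoA ligase, at -0.29 ± 0.06, Dlst, of the oxoglutarate dehydrogenase, at 0.21 ± 0.06 and Idh3a, of isocitrate dehydrogenase, at -0.22 ± 0.06 (adjusted p 6.02e-05, 0.00202 and 0.00247) per the authors' deposited table. In pyruvate dehydrogenase and pyruvate entry 2 of 10 were lower and 0 higher: Dlat, a core enzyme of the complex, was at -0.47 ± 0.07 and the pyruvate carrier gene Mpc2 at -0.29 ± 0.10 (adjusted p 9.02e-10 and 0.0190), and the kinase gene Pdk1, at -0.45 ± 0.19, did not pass (adjusted p 0.0581), per the authors' deposited table. Among carriers, porins and the synthase inhibitor, 4 of 9 were lower and 0 higher. The ADP and ATP carriers Slc25a4 and Slc25a5 were at -0.29 ± 0.05 and -0.24 ± 0.05, and the porin Vdac3 at -0.35 ± 0.06 (adjusted p 1.89e-08, 3.53e-05 and 6.94e-07), per the authors' deposited table. The carriers that exchange ADP for ATP were thus lower, as were 8 ATP synthase genes.

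In coenzyme Q synthesis 1 of 11 genes was lower and 0 higher, with Coq2, which attaches the side chain to the ring, at -0.47 ± 0.13 (adjusted p 0.00239), beside Pdss1 at 0.20 ± 0.10 and Coq10b at -0.24 ± 0.13 (adjusted p 0.120 and 0.138), per the authors' deposited table. In heme synthesis and cytochrome c assembly 2 of 9 were higher and 2 lower, with Alad, an early enzyme of the heme path, at 0.25 ± 0.07, Fech, which makes heme, at -0.31 ± 0.09 and Urod at -0.31 ± 0.11 (adjusted p 0.00107, 0.00226 and 0.0158) per the authors' deposited table. At an unadjusted p under 0.05, 0 regulators were lower, and 0 genes of pyruvate entry, 0 carriers and 1 gene of coenzyme Q synthesis, Pdss1, were higher. The medians of these 9 lists lay between -0.16 and 0.06. The 13 mitochondrially encoded subunits were not analysed here, since none was matched in the table.

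**Figure D5:**
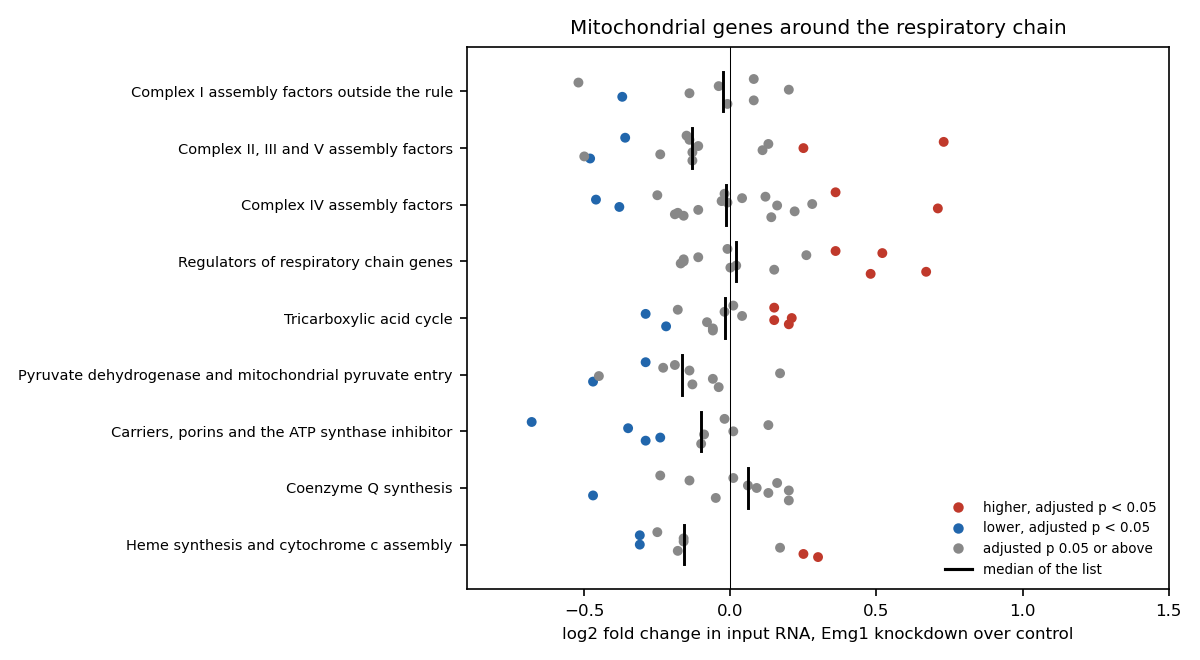
Log2 fold change in input RNA, Emg1 knockdown over control, of each gene in 9 lists around the respiratory chain, with a black bar for the median of each list. Red and blue points are at an adjusted p under 0.05. The regulators hold 4 red points and 0 blue ones, and the carriers 4 blue and 0 red. Of all genes at means of at least 1000, 26.1% were higher and 19.3% were lower.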

How the data were processed

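Input RNA came from 1 table of the authors' own DESeq2 results for 16279 genes. Trimmomatic, HISAT2, DESeq2 and the mm10 build are named in the submitters' processing notes; the read counter, annotation and peak caller, and whether replicates were pooled for peaks, are not stated in the sources used here. The authors deposited a mean normalized count (a signal), a fold change with its SE on the log2 scale, the Wald score, a p-value and an adjusted p-value per gene. Genes without an adjusted p had means at or under 22.7. For each differential peak the authors deposited a fold enrichment (a ratio), a log2 change, and log10 values of its p-value and false discovery rate, at most 0.0282. Library depth is unknown, so precision rests on the deposited SE.

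Genes were called at an adjusted p under 0.05, and percent of control and 95% intervals were computed from the fold change and SE. Genes named were Emg1, every gene called, at least the 4 smallest p per complex, paralogs, genes with peaks, and up to 3 genes per other list. One gene that was called is not reported here by name. Genes and lists were chosen with earlier results of these data known. The recomputed adjustment was tested on simulated data. Alternatives were thresholds of 0.01 and 0.1, adjustment over all genes, a mean of at least 100, centring, membership, and peak filters; backgrounds at means of at least 1000 were added after seeing the data. All 92 genes were matched to RefSeq spans (GRCm38.p6, the patched form of the mm10 build), 3 through older symbols. The tools were scipy 1.17.1, pandas 2.3.3, numpy 2.4.6 and matplotlib 3.10.9 under Python 3.11.15.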

Additional observations from a re-analysis of the deposited data

How the results depend on the processing

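At an adjusted p under 0.01, 4 genes were higher and 14 were lower, in place of 10 and 27. The higher genes of complex I then numbered 2 and the lower ones 2, and the lower genes were 1 in complex II, 2 in complex III, 2 in complex IV and 5 in complex V. Of the 92 genes, 19 lost their call there and 3 gained one at 0.1. Adjustment over all genes ended 4 calls, those of Ndufb9, Ndufv1, Ndufaf4 and Cycs, at adjusted p of 0.0571, 0.0610, 0.0516 and 0.0556. Subtracting the median fold change (genes at means of 100 or more), a shift of 0.01 (log2), ended the calls of Ndufb9 and Ndufv1 (adjusted p 0.0602 and 0.0621) and turned the sign of 4 values that had not passed: Sdha to -0.0036, Ndufa6 to -0.01, Atp5j to -0.0016 and Atp5j2 to -0.01. With a mean of at least 100, or Ndufa4 counted in complex I, the counts of calls stayed within 1.5 times. A mean of at least 100 left out Ndufa4l2, after which 26 genes were lower, 4 of them in complex IV. All 13 peaks stayed at a false discovery rate under 0.01, and 9 had an enrichment of at least 2, of which 8 were negative.

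No paired analysis was possible because the tables hold no value per library. For the same reason the alternatives that leave out a replicate or refit the counts were not run. Genes with small changes near the threshold are therefore the least certain.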
